A study of Mus musculus with 117 samples.

Results

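The genes described here build the MHC class II presentation pathway, and they were taken as a named list: Cd74, H2-Aa, H2-Ab1, H2-Eb1, H2-DMa, H2-DMb1 and Ciita. All 7 were found, by Entrez identifier, among the 27179 genes of each count file. They were followed in RNA-seq libraries from the spinal cords of 70 mice, in which ribosomes of genetically marked cells carry an HA tag (RiboTag) and are pulled down with their mRNA. The precipitated RNA gave 70 astrocyte libraries, and the RNA left in solution gave 47 flow libraries of the same animals. Reads were raw counts per gene, with 40710428 to 136008399 counts per library.

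All mice were young adults on a C57BL/6 background unless a postnatal age is given, and SCI was a complete crush at T10. The tissue block of injured mice held the lesion core together with border tissue rostral and caudal to it. In Aldh1l1-CreERT2-RiboTag mice, tamoxifen switches on the tag in adult cells that use the Aldh1l1 promoter. Females of this line were uninjured (n = 4) or studied at 2 days (n = 5), 5 days (n = 4), 14 days (n = 4), 28 days (n = 4), 42 days (n = 4) and 70 days (n = 4) after SCI, and males at 5 and 14 days (n = 4 each), with astrocyte and flow libraries throughout. In mGfap-Cre-73.12-RiboTag mice, Cre needs no tamoxifen and marks cells, and their progeny, that have used the Gfap promoter since early life. This line was studied 14 days after SCI (n = 5) and uninjured at P63 (n = 5), both with flow libraries, and as astrocyte libraries alone at P0 (n = 4), P3 (n = 3), P7 (n = 3), P14 (n = 5), P21 (n = 4) and P35 (n = 4). The line therefore differs from the other in promoter, in the timing of Cre, and in tamoxifen.

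On GRCm38, Cd74 (Entrez 16149, the invariant chain) lies on chromosome 18 at 60803849 to 60812652. The chain genes lie together on chromosome 17, with H2-Ab1 (14961, the beta chain of I-A) at 34263227 to 34269418, H2-Aa (14960, its alpha partner) at 34282744 to 34287823 and H2-Eb1 (14969, the beta chain of I-E) at 34305867 to 34316674. H2-DMa (14998) at 34119693 to 34139101 and H2-DMb1 (14999) at 34153191 to 34160229 encode the DM peptide exchanger, on the same chromosome. Ciita (12265), the master coactivator, lies on chromosome 16 at 10480014 to 10531064. The paper reports default parameters for featureCounts and does not name a strand setting. Counts of Ciita may therefore be affected by reads that also overlap its neighbour Dexi on the other strand. The same holds for H2-DMa and the overlapping Brd2. H2-DMb1 has a near-identical neighbour, H2-DMb2, and the split of reads between them is uncertain.

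MHC class II molecules show peptides from engulfed material to CD4 T cells. An alpha and a beta chain pair in the endoplasmic reticulum, the invariant chain fills their groove and guides them to endosomes, and the DM heterodimer swaps its remnant for peptide. Dendritic cells, B cells and macrophages are the classical class II cells, while resting microglia carry little and astrocytes are known to make class II mainly after interferon-gamma. The whole set is switched on together by Ciita, a coactivator that binds no DNA itself and docks on factors held at a compact promoter module, the X and Y boxes.

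Letters of the X and Y boxes were looked for in the RefSeq promoter windows (GRCm38.p6, 250 bases before to 50 after each start). Windows of 4 members were examined (H2-Aa, H2-Eb1, H2-DMa and H2-DMb1), while those of Cd74, H2-Ab1 and Ciita were not analysed here. The stretches of the 3 members whose windows held a Y box core are printed 5′ to 3′ on the gene's strand, to show where the motifs lie. Capitals mark the motifs, which were chosen after the sequences had been read. They are an X box (AACNNATG) and a Y box core (TGATTGG) in H2-DMb1 (chr17:34153089-34153144, plus strand) and H2-Eb1 (chr17:34305768-34305822, plus strand), and a cyclic AMP response element (TGACGTCA) before the Y box core in H2-Aa (chr17:34287857-34287907, minus strand).
H2-DMb1: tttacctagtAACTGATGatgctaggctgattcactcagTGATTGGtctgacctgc
H2-Eb1: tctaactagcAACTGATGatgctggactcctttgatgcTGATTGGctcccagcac
H2-Aa: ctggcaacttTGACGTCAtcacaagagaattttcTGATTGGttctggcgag
The Y box core began 63 bases before the start in H2-DMb1, 61 in H2-Eb1 and 50 in H2-Aa. The X box began 29 bases before the Y box core in H2-DMb1 and 28 in H2-Eb1. In H2-Aa the cyclic AMP response element began 24 bases before it. That distance starts from another motif, so it cannot be compared with those of the X box. The H2-Aa window did not hold the X box letters as searched, and looser forms of the X box were not searched. Searched on both strands of 32851 RefSeq promoters of 27025 genes, the Y box core letters occurred in 7.82% of promoters, the X box letters in 8.86% and the cyclic AMP response element in 1.79%. The motifs did not overlap one another in these windows. Of the windows of related chains, those of H2-DMb2, H2-Ob and H2-Eb2 held both the X box and the Y box core letters, H2-Oa held the Y box core alone, and neither window of H2-DMa held any of the 3 motifs.

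In astrocyte libraries of the Aldh1l1 line, the whole set rose within 2 days of SCI and stayed up to day 70. Levels are given as CPM, counts scaled to library size with TMM factors over all libraries. Cd74 stood at 52.3, 49.1, 13.5 and 13.6 CPM in the 4 uninjured mice, at 223, 138, 221, 139.9 and 175 at 2 days and at 480.3, 493.2, 524.1 and 605 at 5 days. It reached 866, 802, 753 and 600.1 CPM at 14 days, 1696, 1331, 602 and 782 at 28 days, 761, 818, 1282 and 802 at 42 days, and 1102, 914, 1240.0 and 1142 at 70 days. No injured library overlapped the uninjured ones, and the ranges moved upward to 14 days, with a narrow overlap of the 5- and 14-day libraries, after which those at 28, 42 and 70 days overlapped one another. Uninjured mice 1 and 2 stood above mice 3 and 4, in both fractions, for Cd74 and the 3 chain genes.

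Each time point was compared with uninjured by edgeR's quasi-likelihood test over 18205 genes, with a gene called at an adjusted p (FDR) under 0.01. All 7 genes were higher at each of the 6 times, where 30.2% (2 days), 28.7% (5 days), 24.5% (14 days), 22.8% (28 days), 23.3% (42 days) and 23.9% (70 days) of all genes tested were higher. Their ranges were separate from the uninjured range for 7 of 7 genes at all 6 times. The share of all genes with separate ranges was not counted, here or in the comparisons below, so separate ranges describe the members alone. The members' median log2 fold change was 2.50 at 2 days and 5.12 at 70 days, against -0.04 and 0.05 over all genes tested.

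By role, the invariant chain Cd74 was 5.64-fold higher at 2 days (log2 2.50 ± 0.36 SE, edgeR FDR = 1.3e-06), 16.3-fold at 5 days (4.03 ± 0.40, FDR = 2.3e-09) and 34.9-fold at 70 days (5.12 ± 0.42, FDR = 2.6e-10). The chain genes followed the same course. H2-Ab1 was at 19.9, 17.1, 4.48 and 6.79 CPM in uninjured mice, 225, 216, 248 and 281 at 5 days and 450.0, 402, 527 and 464 at 70 days, a log2 difference of 5.29 ± 0.40 at the last time (edgeR FDR = 5.9e-11). H2-Aa was at 13.3, 15.4, 3.27 and 4.61 CPM in uninjured mice and at 341, 288, 376 and 365 at 70 days, 38.2-fold higher (log2 5.25 ± 0.42). H2-Eb1 moved from 14.1, 14.0, 3.75 and 4.86 to 345, 323.3, 389 and 358 CPM over the same interval, 39.3-fold (log2 5.29 ± 0.40). The injured libraries lay far above all uninjured ones in each of these genes.

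The genes of the peptide exchanger had smaller fold changes than the chain genes at 70 days. H2-DMa stood at 5.72, 4.42, 3.47 and 2.54 CPM in uninjured mice, between 36.7 and 40.7 at 5 days and 42.8, 22.2, 39.7 and 33.3 at 70 days, with fold changes of 9.49 at 5 days (log2 3.25 ± 0.27) and 8.71 at 70 days (3.12 ± 0.27). H2-DMb1 stood at 5.28, 4.28, 1.45 and 0.868 CPM in uninjured mice and at 27.8, 30.1, 32.9 and 31.3 at 5 days, 10.2-fold higher (log2 3.35 ± 0.37). For both genes the libraries of 5 and 70 days overlapped.

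The coactivator Ciita was the scarcest member throughout. It stood at 0.414, 0.411, 0.280 and 0.105 CPM in uninjured mice, 1.40, 1.47, 2.42, 1.24 and 1.37 at 2 days and 4.17, 4.04, 2.80 and 4.37 at 5 days. Later libraries spread widely, with 9.46, 6.22, 2.24 and 2.50 CPM at 28 days and 4.62, 1.69, 2.91 and 2.86 at 70 days. The rise was 12.5-fold at 5 days (log2 3.65 ± 0.42, edgeR FDR = 1.2e-08) and 10.1-fold at 70 days (3.33 ± 0.42, FDR = 1.3e-07).

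**Figure D1:**
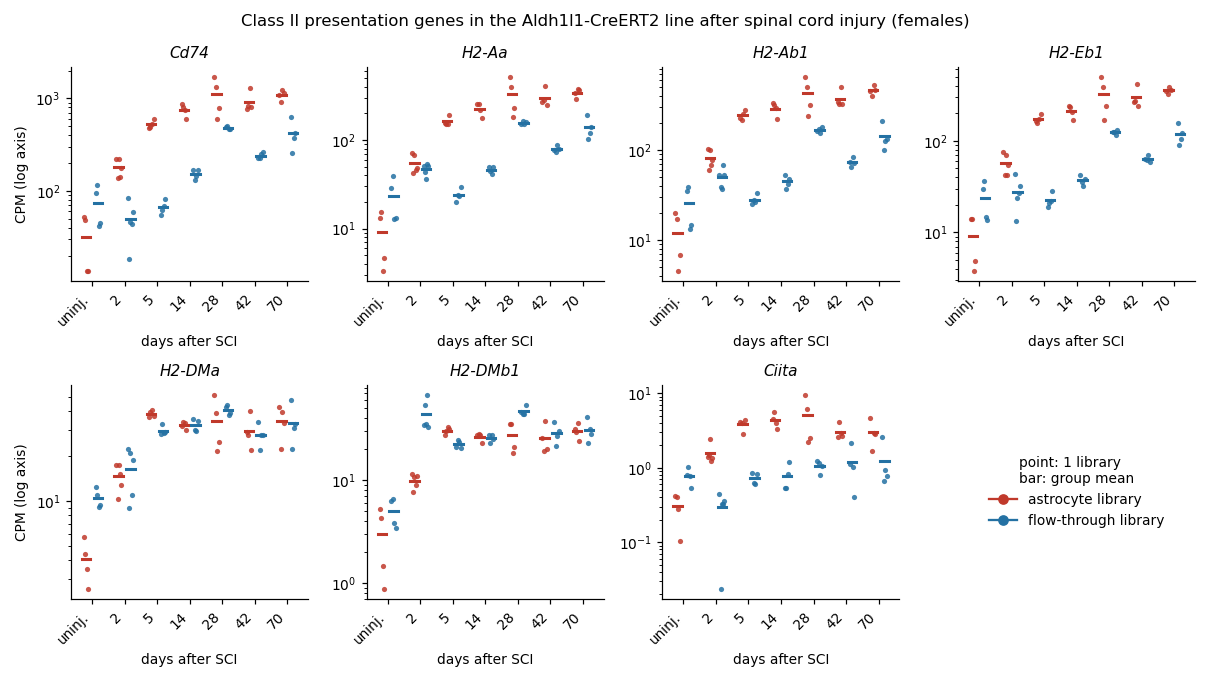
Levels of the 7 class II presentation genes (CPM, log axis) in Aldh1l1 females, by days after SCI, with 1 point per library and a bar at the group mean, astrocyte libraries in red and flow libraries in blue. Red points rise above all uninjured red points by 2 days in every panel, and the blue points of Cd74 and the chain genes stay low at 5 days and peak at 28 days.

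Between consecutive times, all 7 genes passed the test once more, and none did in the later steps. From 2 to 5 days all 7 genes rose again, by log2 1.26 (Ciita) to 1.60 (H2-Eb1 and H2-DMb1), where 21.8% of genes tested were higher. None of the 7 passed the test from 5 to 14 days (25.3% of all genes tested passed in either direction), 14 to 28 days (7.40%), 28 to 42 days (1.67%) or 42 to 70 days (12.6%). In those 4 steps none of the 7 had an unadjusted p under 0.05 in edgeR, and DESeq2 called none either. Of the 18205 genes tested, 7853, 5062, 3683 and 6416 had such an edgeR p, in order of the steps. The differences ran from -0.28 (H2-DMa) to 0.50 (Cd74) on the log2 scale for 5 to 14 days, from 0.10 to 0.66 for 14 to 28 days, from -0.72 (Ciita) to -0.07 for 28 to 42 days and from -0.03 to 0.30 for 42 to 70 days, with standard errors of 0.24 to 0.37 over these steps. Over the whole interval the 70-day libraries of Cd74 and of H2-Ab1 nevertheless lay above all those of 5 days.

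Per length, the order of the genes was the same in uninjured mice and at 5 and 70 days. In FPKM, uninjured astrocyte libraries held 22.7 ± 15.2 (SD, n = 4) of Cd74, 10.1 of H2-Ab1, 8.11 of H2-Aa, 5.50 of H2-Eb1, 2.31 of H2-DMb1, 1.87 of H2-DMa and 0.0504 of Ciita. The spread between uninjured mice exceeded the gaps between neighbours in that order, except the last, between H2-DMa and Ciita. At 5 days the levels were 372 ± 39.6 FPKM for Cd74, 203 ± 24.2 for H2-Ab1, 144 ± 16.3 for H2-Aa, 104 ± 10.8 for H2-Eb1, 23.8 for H2-DMb1, 17.8 for H2-DMa and 0.641 for Ciita. At that time each step down the order was larger than the SD of either neighbour. At 70 days Cd74 stood at 777 ± 96.6 FPKM, H2-Ab1 at 386 ± 43.2, H2-Aa between 255 and 333 in single libraries, H2-Eb1 at 212 ± 16.4, H2-DMb1 at 23.5, H2-DMa at 15.9 and Ciita at 0.504.

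The flow libraries of the same mice followed another course. Cd74 in flow stood at 96.0, 115, 42.3 and 44.6 CPM in uninjured mice, 84.0, 18.4, 45.9, 43.7 and 59.9 at 2 days and 54.6, 61.7, 69.4 and 82.2 at 5 days. It then stood at 168, 131, 144 and 169.9 CPM at 14 days, 488.7, 501, 473 and 470.1 at 28 days, between 225 and 262 at 42 days and 622, 257.2, 375.3 and 427 at 70 days. The flow libraries of 2 and 5 days overlapped the uninjured ones, and those of 14 days onward lay above them.

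Over 19207 genes tested in flow, 4 of 7 members were higher at 2 days (32.6% of all genes), 2 at 5 days (27.7%), 5 at 14 days (24.6%), and 6 at 28 days (26.4%), 42 days (25.3%) and 70 days (21.8%). Cd74 was -0.55 ± 0.29 (log2, edgeR FDR = 0.092) at 2 days, -0.08 ± 0.31 at 5 days, 1.05 ± 0.31 at 14 days (FDR = 0.0055), 2.68 ± 0.33 at 28 days and 2.51 ± 0.33 at 70 days. H2-Aa, H2-Ab1 and H2-Eb1 did not pass at 5 days (log2 0.12, 0.20 and 0.01) and reached 2.74, 2.69 and 2.38 at 28 days. Between 14 and 28 days, Cd74, the 3 chain genes and H2-DMb1 rose in flow by log2 0.84 to 1.87, where 4.97% of all genes tested rose. The 14-day count is the least firm of these: with any 1 of uninjured flow libraries 3 and 4 or 14-day flow libraries 1 and 4 left out it was 3 of 7, and with only the 2 groups fitted it was 2. With only its 2 groups fitted, the 2-day count was 1 of 7.

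The 4 members higher in flow at 2 days were H2-DMb1, H2-Aa (log2 1.03), H2-Ab1 (0.98) and H2-DMa. H2-DMa was at log2 0.68 ± 0.21 at 2 days and 1.58 ± 0.22 at 5 days, and from 14 to 28 days it did not pass (0.31, edgeR FDR = 0.34). H2-DMb1 stood at 6.35, 6.56, 3.85 and 3.45 CPM in uninjured flow libraries and at 34.2, 53.8, 34.99, 67.5 and 32.8 at 2 days, with no overlap, 8.98-fold higher (log2 3.17 ± 0.24, edgeR FDR = 1.8e-12). From 2 to 5 days it fell by 0.94 on the log2 scale, together with H2-Aa (-0.91) and H2-Ab1 (-0.78), while H2-DMa rose (0.91), where 41.6% of all genes passed in either direction. Ciita in flow passed at no time. Its lowest values were 0.445, 0.0234, 0.322, 0.329 and 0.357 CPM at 2 days, below all 4 uninjured flow libraries (0.805, 1.02, 0.782 and 0.532), with a log2 difference of -1.36 ± 0.50 (edgeR FDR = 0.016).

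The fractions were next compared by the astrocyte-to-flow ratio within a mouse. By its design the precipitation enriches transcripts of tagged cells on the beads, but markers of other cells were enriched there too, as the values of neutrophil and monocyte genes given with the marker lists show, so a ratio above 0 does not by itself name the source of a transcript. In bulk RNA fewer cells of a type and less RNA per cell cannot be told apart. For Cd74 the log2 ratio was -0.88, -1.23, -1.64 and -1.71 in the 4 uninjured mice, so the flow libraries held more. At 2 days it was 1.41, 2.91, 2.27, 1.68 and 1.55, at 5 days 3.14, 3.00, 2.92 and 2.88, and at 14 days 2.36, 2.62, 2.39 and 1.82. Later it was 1.80, 1.41, 0.35 and 0.73 at 28 days, 1.76, 1.84, 2.36 and 1.61 at 42 days and 0.82, 1.83, 1.72 and 1.42 at 70 days. Every uninjured mouse was below 0, and every injured mouse was above it.

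Tested within each time, with astrocyte and flow libraries as groups, 1 of 7 members differed in uninjured mice (H2-DMa, lower in the astrocyte libraries, log2 -1.39 ± 0.23), where 62.1% of all genes differed in either direction and 31.3% were lower. With the animal as a block, 6 of 7 were lower in uninjured astrocyte libraries (log2 -1.06 to -1.49), and Ciita was not (-1.51, edgeR FDR = 0.019). Of the members, 4 differed at 2 days (55.7% of all genes), 7 at 5 days (64.4%), 5 at 14 days (62.4%), 4 at 28 days (64.4%), 4 at 42 days (46.8%) and 4 at 70 days (45.7%).

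At 5 days all 7 were higher in the astrocyte libraries, where 32.4% of all genes were. Cd74 was 7.22-fold higher (log2 2.85 ± 0.13, edgeR FDR = 2.4e-10) and H2-Ab1 was 7.97-fold higher (3.00 ± 0.11), with H2-Aa at 2.64, H2-Eb1 at 2.82 and Ciita at 2.28 ± 0.21. The DM genes differed little: H2-DMb1 was at log2 0.33 ± 0.09, and H2-DMa was at 0.26 ± 0.08, a value that turned to -0.04 when libraries were scaled by total counts. Per length, 5-day flow libraries held 47.3 FPKM of Cd74, 23.5 of H2-Ab1 and 17.5 of H2-DMb1, so H2-DMb1 was close to the chain genes there and far below them in astrocyte libraries.

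At other times the pattern was looser. At 2 days Cd74 (log2 1.78 ± 0.32), H2-Eb1 (0.97) and Ciita (2.35) were higher in astrocyte libraries and H2-DMb1 was lower (-2.23 ± 0.23), while H2-Aa stood at 0.18 and H2-Ab1 at 0.65 (edgeR FDR = 0.011). Without 2-day astrocyte library 3 only 2 members passed. At 14 days Cd74 and the chain genes were at 2.18 to 2.59 and Ciita at 2.40, and the DM genes stood at -0.10 and -0.06. At 28 days H2-Ab1 (1.31), H2-Eb1 (1.34) and Ciita (2.23) passed upward and H2-DMb1 (-0.81) downward. That 28-day count was 1 of 7 with the animal as a block (Ciita, 2.00), 2 without astrocyte library 2 and 1 without any single flow library. At 42 days Cd74 and the chain genes were at 1.91 to 2.33, and at 70 days at 1.25 to 1.64, with Ciita not past the test (1.36, edgeR FDR = 0.018, and 1.22, FDR = 0.045).

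The change of the ratio was itself tested against uninjured in 1 fit of 19640 genes. Of the 7, all passed at 2 days (50.7% of all genes passed in either direction) and 5 days (28.5%), and 6 at 14 days (24.5%), 28 days (28.4%), 42 days (23.3%) and 70 days (17.7%). The median over all genes was itself shifted by 0.30 at 2 days, 0.19 at 5 days, 0.13 at 14 days and 0.10 at 28 days on the log2 scale. Cd74 gained 3.23 ± 0.46 at 2 days, 4.31 ± 0.50 at 5 days and 2.67 ± 0.48 at 70 days, and Ciita gained 3.92, 3.89 and 2.70. H2-DMb1 was lower at 2 days (-1.23, edgeR FDR = 0.0067, which became -0.93 and FDR = 0.017 with the animal as a block), higher at 5 days (1.34) and not past the test later (0.08 to 0.90).

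**Figure D2:**
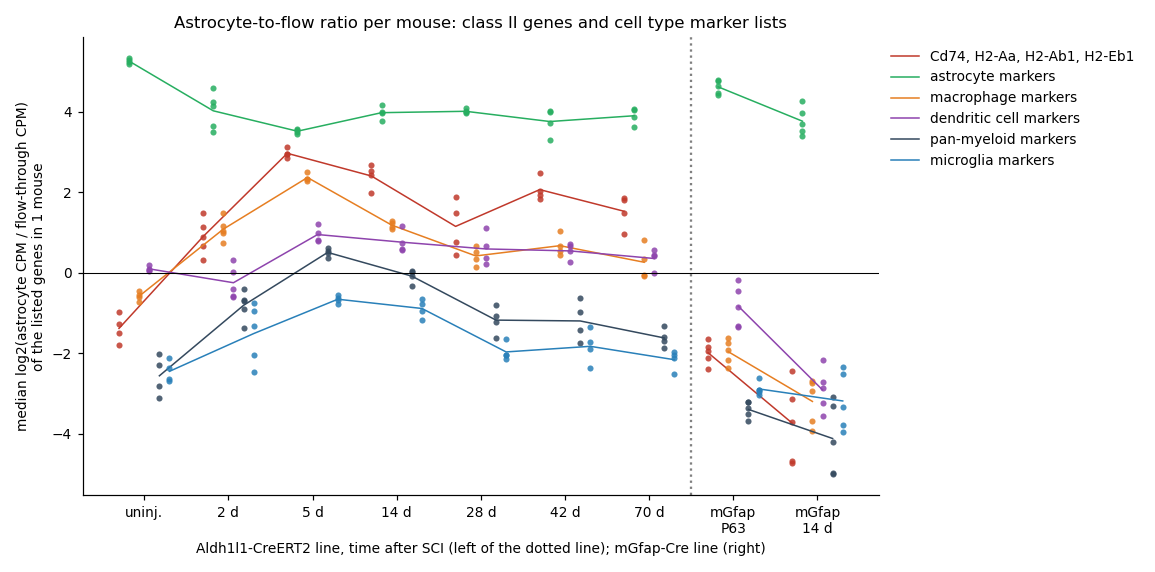
Median log2 ratio of astrocyte to flow CPM in each mouse (points) and its mean per condition (lines) for Cd74 with H2-Aa, H2-Ab1 and H2-Eb1 and for marker lists of astrocytes, macrophages, dendritic cells, pan-myeloid cells and microglia, by time after SCI in the Aldh1l1 line and for the mGfap line at the right. The class II line passes from -1.38 in uninjured mice to 2.96 at 5 days, stays below the astrocyte markers in every mouse, and falls to -3.74 in the mGfap line 14 days after SCI.

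The class II ratio was set beside those of cell type markers in the same mice. The median ratio of Cd74 and the 3 chain genes averaged -1.38 in uninjured mice and 0.90, 2.96, 2.40, 1.15, 2.06 and 1.52 at the 6 times after SCI, in order. For 10 astrocyte markers it was 5.25 in uninjured mice and 3.51 to 4.02 after SCI, for 14 pan-myeloid markers -2.56 and -1.62 to 0.50, and for 10 macrophage markers -0.58 and 0.26 to 2.36. The class II genes lay below the astrocyte markers in every mouse, by 0.55 at 5 days and 2.37 at 70 days. They lay above the pan-myeloid markers in every mouse, by 2.46 at 5 days and 3.15 at 70 days. Above the macrophage markers they lay by 0.60 at 5 days (4 of 4 mice) and 1.27 at 70 days (4 of 4), but by -0.18 at 2 days (2 of 5 mice above) and -0.80 in uninjured mice (0 of 4). Above 8 dendritic cell markers they lay by 2.02 at 5 days and 1.17 at 70 days (4 of 4 mice each), and by -1.48 in uninjured mice (0 of 4). Above 8 B cell markers the values were 3.99, 1.57 and -1.78, and above the microglia markers 3.62, 3.69 and 1.07.

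Markers of neutrophils, which arise in the bone marrow and carry little class II, were also enriched on the beads of this line. Their median ratio over 8 genes was 2.79 ± 0.235 (SD, n = 4) in uninjured Aldh1l1 mice, 2.03 ± 0.25 at 5 days and 2.62 ± 0.27 at 70 days, above 0 in every mouse. In uninjured astrocyte libraries 7 of 8 were called higher than in flow (30.7% of all genes were), and at 5 days 4 of 8 (32.4%). Their part in the class II result was not tested.

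Markers of macrophages, other myeloid cells and dendritic cells also rose in the astrocyte libraries after SCI, while few B cell markers did. All 14 pan-myeloid markers were higher in astrocyte libraries at each of the 6 times, with a median log2 fold change of 6.89 at 5 days and 4.59 at 70 days, and their summed level went from 50.2 to 85.8 CPM in uninjured libraries to 6970 to 8610 at 5 days and 1010 to 2640 at 70 days. Of 10 macrophage markers 9 were higher at 5 days and 7 at 70 days, with sums of 8950 to 10500 and 541 to 1430 CPM. The pan-myeloid and macrophage sums were therefore lower at 70 than at 5 days. Of 8 dendritic cell markers 6 were higher at both times, of 8 B cell markers 1 at each time (the background was 28.7% of all genes at 5 days and 23.9% at 70 days), and of 6 T cell markers 2 at 5 days and 6 at 70 days. Astrocyte markers summed to at least 20900 CPM in every astrocyte library of the time course, though 9 of 10 were lower at 5 days than in uninjured libraries (28.1% of all genes were) and 7 of 10 at 70 days (21.5%). The part of these cells in the class II result was not tested.

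Single markers separated further by fraction. Aldh1l1 and Gfap were higher on the beads at 5 days by log2 3.05 and 3.20. The leukocyte gene Ptprc (2.25), the integrin Itgam (1.60) and the chemokine receptor Ccr2 of monocytes (2.80) were also higher on the beads at 5 days, and Cd209a, a lectin of monocyte-derived dendritic cells, was at 4.10 ± 0.62. The dendritic cell list as a whole stood much lower, with a mean ratio of 0.95 at 5 days and 0.35 at 70 days. At 5 days 4 of its 8 genes were higher on the beads, where 32.4% of all genes were, and 1 was lower, where 64.4% passed in either direction. At 70 days 1 was higher and 1 lower, where 22.6% and 23.1% were. At 2 days edgeR called 0 higher and 2 lower, Clec9a (-2.66) and Batf3 (-2.89), where 27.7% and 28.1% of all genes were. Unlike Ptprc, Itgam and Ccr2, the complement gene C1qa (-0.65), the myeloid gene Aif1 (-0.47) and the microglial gene Tmem119 (-1.53) were lower on the beads at 5 days. At 70 days Ccr2 (1.30) and Cd209a (2.42 ± 0.47) were still higher on the beads, whereas Itgam (-1.52), C1qa (-2.24) and the microglial receptor P2ry12 (-1.41) were lower. Cd209a was scarce, at 1.50 CPM in astrocyte and 0.0791 in flow libraries at 5 days. The B cell gene Ms4a1 (0.0525) was near 0 CPM in astrocyte libraries at 5 days, when Cd79a was at 0.203.

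The rest of the presentation machinery differed by role. Of 10 processing genes, 8 were higher in astrocyte libraries at each time, where 22.8% to 30.2% of all genes were. Among them were the cathepsin Ctss, which trims the invariant chain (log2 8.42 at 5 days, 5.82 at 70 days), and the lysosomal thiol reductase Ifi30 (5.13 and 2.46). Unlike Cd74, Ctss was lower on the beads than in flow at 70 days (-1.48), after being higher at 5 days (2.19). All 4 tested of 5 other class II chains were higher, where 28.7% of all genes were at 5 days and 23.9% at 70 days. H2-DMb2 was at log2 5.29 and 4.81, H2-Oa at 5.23 and 4.36 and H2-Ob at 5.08 and 4.76 for 5 and 70 days. H2-Ea did not pass the filter on low counts. Of 7 costimulation genes, 5 were higher at 5 days and 6 at 70 days, beside those same shares of all genes. Cd86, a ligand of CD28, was at 6.57 and 4.67, yet it was lower on the beads than in flow at 70 days (-2.04).

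Most factors that hold Ciita at the promoter were not higher after SCI. Of 7, 1 was higher and 4 lower at 5 days, where 28.7% of all genes were higher and 28.1% lower, with Rfx5, which binds the X box, at log2 -0.88 and Nfyb, which binds the Y box, at -0.41. Among 9 interferon-gamma pathway genes, 5 were higher at 5 days. Irf1 (1.72) and the receptor Ifngr1 (1.45) rose, and Ifng itself stayed near 0, at no more than 0.368 CPM. Of 12 class I genes, 11 were higher at 5 days, with H2-K1 at 1.29, B2m, the light chain of class I, at 1.54 and Nlrc5, the class I counterpart of Ciita, at 3.50.

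The line that marks the cells changed the picture. At 14 days after SCI, Cd74 in mGfap astrocyte libraries stood at 37.3, 23.7, 18.2, 142 and 21.6 CPM, against 866, 802, 753 and 600.1 in Aldh1l1 females. In flow the order was the other way round, with 348.4, 334, 516, 827 and 689.8 CPM in mGfap mice and 168, 131, 144 and 169.9 in Aldh1l1 mice. The lines did not overlap in either fraction, and the share of all genes that did not overlap was not counted. Neither did they for H2-Ab1, at 18.1, 9.28, 10.8, 55.4 and 11.4 CPM in mGfap astrocyte libraries (329.5, 313, 289 and 222 in Aldh1l1) and 112 to 273 in mGfap flow (52.3, 36.6, 41.7 and 48.1 in Aldh1l1). The DM genes and Ciita were separate in the astrocyte libraries alone. H2-DMa was at 9.81, 4.46, 6.04, 12.9 and 6.57 CPM in mGfap and 31.8, 34.1, 33.1 and 30.02 in Aldh1l1 astrocyte libraries, and its flow libraries overlapped (29.97 to 55.03 and 29.6 to 35.4). Ciita was at 0.594, 0.351, 0.384, 0.758 and 0.744 CPM in mGfap and 4.54, 5.66, 4.00 and 3.33 in Aldh1l1 astrocyte libraries, with overlap in flow (0.669 to 1.87 and 0.539 to 1.18). Library 4 was the highest of the mGfap astrocyte libraries for all 7 genes.

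Over 17848 genes in the astrocyte fit, all 7 members were lower in mGfap than in Aldh1l1 libraries at 14 days, where 11.4% of all genes were lower. The log2 differences were -3.88 ± 0.60 for Cd74 (edgeR FDR = 4.8e-05), -3.80 for H2-Aa, -3.70 for H2-Ab1, -3.85 for H2-Eb1, -1.95 for H2-DMa, -2.05 for H2-DMb1 and -2.88 for Ciita. All 14 pan-myeloid markers were lower as well (median -3.27), as were 8 of 10 macrophage markers (-3.74), 5 of 8 neutrophil markers (-3.72) and 10 of 12 class I genes (-1.01). Of 10 astrocyte markers 0 passed (-0.40), where 23.3% of all genes passed in either direction. All 6 oligodendrocyte lineage markers were higher (3.75), where 12% of all genes were. The part of these cells in the difference was not tested. Promoter, timing of Cre and tamoxifen cannot be told apart.

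In uninjured mice none of the 7 members passed between the lines in astrocyte libraries, where 12.4% of all genes differed. The differences were -1.81 for Cd74, -1.61 for H2-Aa, -1.59 for H2-Ab1, -1.65 for H2-Eb1, -0.14 for H2-DMa, 0.16 for H2-DMb1 and -1.10 for Ciita. By edgeR 4 had an unadjusted p under 0.05, as had 6109 of the 17848 genes tested, and DESeq2 called 0. In flow none of the 7 passed either (8.71% of all genes differed), with differences of -0.43 to -0.97. There 6 members had an unadjusted edgeR p under 0.05, as had 6130 of 18838 genes tested, and DESeq2 called 0. The ranges of the uninjured lines overlapped for 7 of 7 genes in both fractions, and the share of all genes that did so was not counted.

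Within the mGfap line, 6 of 7 members were higher in astrocyte libraries at 14 days than at P63, where 27.7% of all genes were higher. Cd74 moved from 5.14, 11.3, 13.7, 7.05 and 9.73 CPM to the levels given above, a log2 difference of 2.49 ± 0.56 (edgeR FDR = 0.00098), and H2-DMb1 did not pass (0.96, FDR = 0.042). The P63 mice were 3 males and 2 females and the 14-day mice all females, and with labelled sex as a covariate 1 of 7 passed. In mGfap flow all 7 were higher (33.6% of all genes were), Cd74 by log2 3.82 ± 0.38 and H2-DMb1 by 3.39. Its Cd74 went from 18.9, 63.04, 49.3, 28.2 and 33.9 CPM at P63 to 334 to 827 at 14 days.

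The response to SCI was also compared between the lines. In astrocyte libraries the interaction passed for 2 of 7 members, H2-DMa (-1.80 ± 0.44, edgeR FDR = 0.0059) and H2-DMb1 (-2.21 ± 0.58, FDR = 0.0099), where 4.94% of all genes were lower. The other 5 were at -1.79 to -2.20 with FDR of 0.04 to 0.12, and the count was 0 with labelled sex as a covariate. It was 6 without mGfap 14-day astrocyte library 4. It was 0 without any 1 of Aldh1l1 14-day libraries 1, 2 and 4, mGfap 14-day libraries 3 and 5 and P63 libraries 2, 3 and 5. It was 1 without any 1 of uninjured Aldh1l1 libraries 2 and 3, Aldh1l1 14-day library 3, mGfap 14-day libraries 1 and 2 and P63 library 4. In flow, Cd74 (1.81), H2-Aa (1.78), H2-Ab1 (2.02) and H2-Eb1 (1.86) were higher in mGfap mice at 14 days, 4 of 7 where 0.180% of 18838 genes were. That count was 0 without Aldh1l1 14-day flow library 2, 3 or 4, and 2 without Aldh1l1 flow library 1 or mGfap flow library 5, although the ranges of these 4 genes did not overlap between the lines. The interaction in flow passed for the same 4 genes (2.71 to 2.94), where 0.998% of all genes were higher, with Cd74 at 2.78 ± 0.51.

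**Figure D3:**
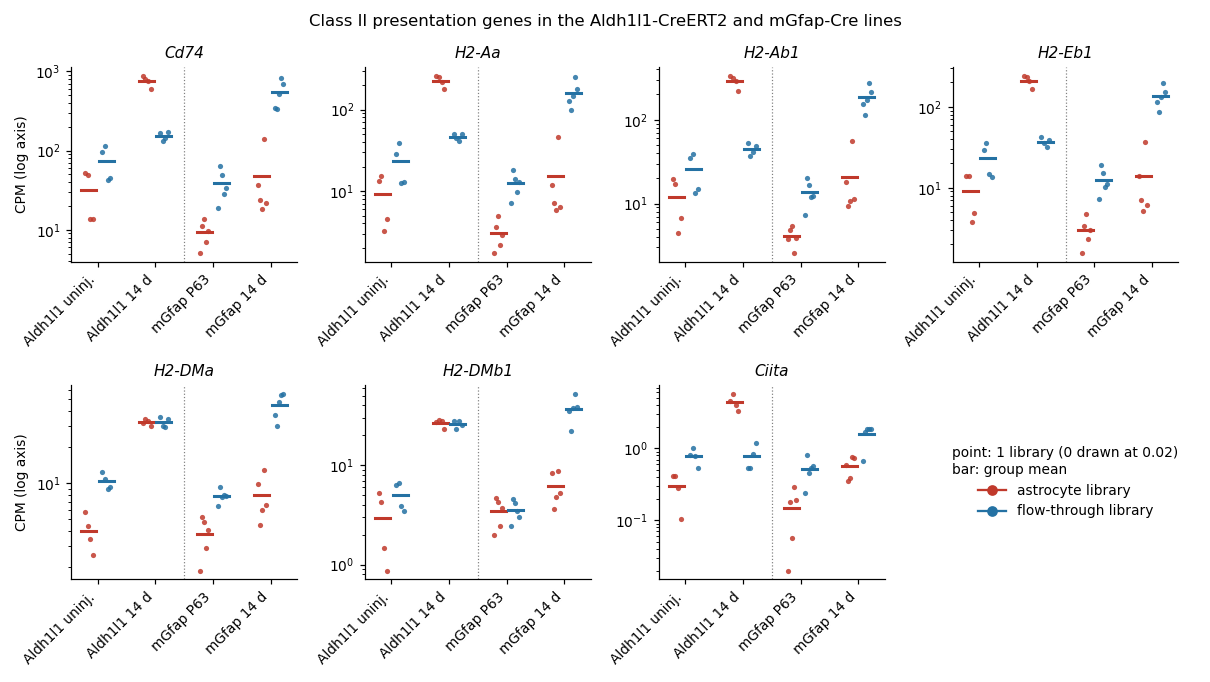
Levels of the 7 genes (CPM, log axis) in uninjured mice and 14 days after SCI in the Aldh1l1 line (left of the dotted line) and the mGfap line (right), with 1 point per library, a bar at the group mean and a value of 0 drawn at 0.02. Astrocyte libraries (red) lie above flow libraries (blue) for Cd74 and the chain genes in injured Aldh1l1 mice and below them in injured mGfap mice.

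The ratio stated the same contrast mouse by mouse. In mGfap mice the Cd74 log2 ratio was -1.88, -2.48, -1.85, -1.997 and -1.80 at P63 and -3.22, -3.82, -4.82, -2.55 and -4.99 at 14 days, below 0 in every mouse. Of the 7, 5 were lower in astrocyte than in flow libraries at P63, Cd74 by -2.10 ± 0.33. There 35.2% of all genes were lower and 67.8% differed in either direction. All 7 were lower at 14 days, from -1.54 ± 0.36 for Ciita to -3.53 ± 0.61 for Cd74. At that time 23.6% of all genes were lower and 46.9% differed in either direction. Between the lines at 14 days the ratio differed for all 7 (7.91% of 18666 genes had a lower ratio in mGfap mice), by -5.66 ± 0.71 for Cd74 (edgeR FDR = 8.2e-06), -5.70 for H2-Ab1, -2.37 for H2-DMa and -3.88 for Ciita. In the same mGfap mice at 14 days, Ptprc was at -2.27, Itgam at -2.78, Ccr2 at -3.52 and Cd209a at -3.42, and the neutrophil markers averaged -4.55, while Aldh1l1 was at 3.39 and Gfap at 3.75. The class II genes lay above the pan-myeloid markers by 0.38 in 5 of 5 mGfap mice at 14 days, and below the microglia markers by 0.55 in 5 of 5. They lay below the dendritic cell markers by 0.83 in 5 of 5, below the macrophage markers by 0.54 in 4 of 5 and below the B cell markers by 0.29 in 3 of 5.

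Sex and age were compared where the design held them. None of the 7 passed between males and females over 5 and 14 days in astrocyte libraries, where 0.0510% of all genes differed. The males' values were higher by log2 0.21 to 0.39, with an edgeR FDR of 1.0 and 0 calls by DESeq2. An unadjusted edgeR p under 0.05 was found for 6 of 7 members and for 583 of 17639 genes tested. In flow none passed (0.267% of all genes differed, and DESeq2 called 0), with differences of -0.06 to 0.46. There 4 members had an unadjusted edgeR p under 0.05, as had 4540 of 18692 genes tested. The Cd74 log2 ratio of the males was 2.82, 2.60, 3.06 and 3.18 at 5 days and 2.07, 2.42, 2.76 and 2.21 at 14 days, overlapping the females at both times.

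In uninjured mGfap astrocyte libraries from P0 to P63 Cd74 stood at no more than 13.7 CPM, while H2-Ab1 and H2-DMa had their highest group means at P7. Cd74 stood at 4.52, 4.77, 6.43 and 4.03 CPM at P0, 6.86, 10.8 and 6.17 at P7 and 5.14, 11.3, 13.7, 7.05 and 9.73 at P63. H2-Ab1 stood at 6.68, 9.03, 7.32 and 4.41 CPM at P0, 13.1, 18.4 and 13.2 at P7 and 5.04, 2.50, 2.42 and 2.21 at P35, with all 3 P7 libraries above those of P0 and P35. H2-DMa likewise stood at 15.7, 16.2 and 14.9 CPM at P7, above all 4 P0 libraries (4.67, 4.94, 9.04 and 4.34) and all 5 mGfap astrocyte libraries of 14 days after SCI (4.46 to 12.9). P7 was picked out after the levels had been seen and was not tested against other groups. How many of all genes had separate ranges there was not counted. None of the 7 passed between P63 and P0, where 50.2% of all genes differed. By edgeR 3 had an unadjusted p under 0.05, as had 11726 of 18041 genes tested, while DESeq2 called 2. The nearest were Cd74 (log2 0.92 ± 0.31, edgeR FDR = 0.013) and H2-Ab1 (-0.74 ± 0.25, FDR = 0.012). All 4 P0 mice are labelled male and the P63 mice are 3 males and 2 females, and with labelled sex as a covariate none of the 7 passed either (Cd74 0.86, H2-Ab1 -0.76).

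**Figure D4:**
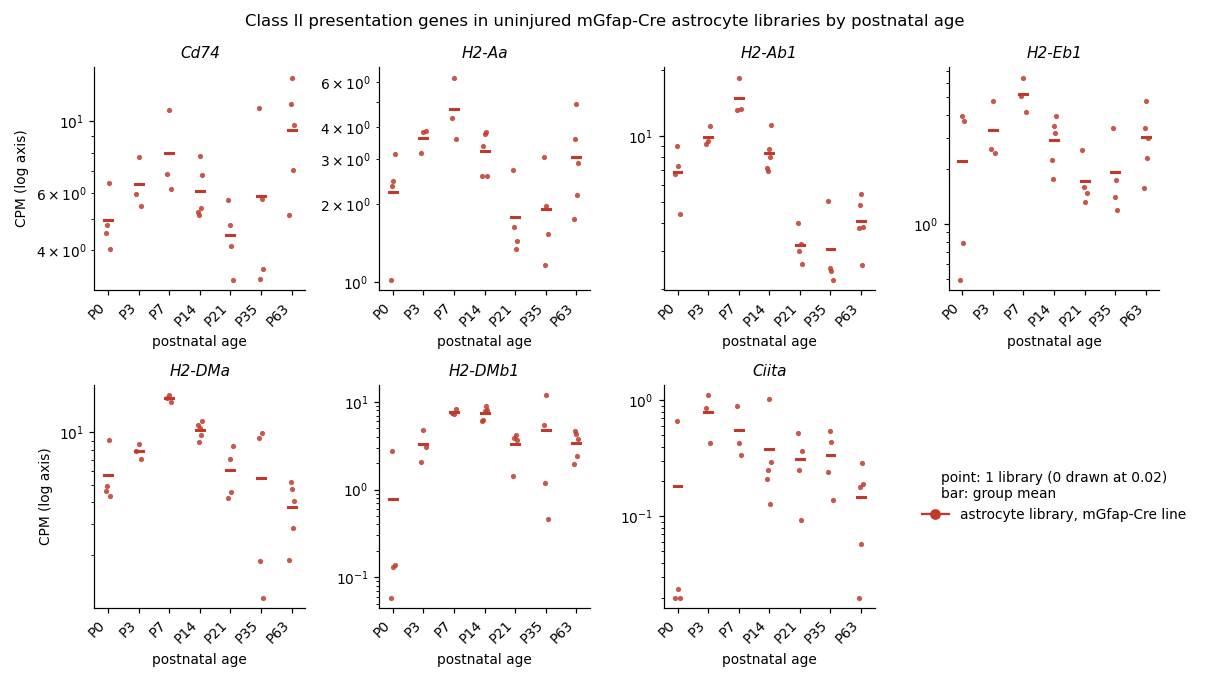
Levels of the 7 genes (CPM, log axis) in uninjured mGfap astrocyte libraries by postnatal age, with 1 point per library, a bar at the group mean and a value of 0 drawn at 0.02. H2-Ab1 and H2-DMa reach their highest group means at P7, and Ciita and H2-DMb1 at P0 rest on 1 library that stands above the other 3.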

How the data were processed

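RiboTag astrocyte and flow RNA from mouse spinal cord was sequenced by the authors (poly-A, paired ends), trimmed with Trimmomatic, aligned to mm10 with HISAT2 and counted with featureCounts. The deposited files hold whole-number counts per Entrez gene for each library, and no 2 libraries were identical. Of 27179 genes, 25275 were named from RefSeq. Groups came from the labels. One 5-day flow library (replicate 4) is labelled male but was kept with its titled female group. Counts were tested with edgeR 4.0.16 (R 4.3.3; filterByExpr, TMM, quasi-likelihood fit, two-sided), with Benjamini-Hochberg adjustment over all genes tested and calls at FDR under 0.01, as in the study. CPM used TMM factors and FPKM the union of exon lengths. Log2 CPM, with the per-mouse ratios and correlations taken from it, used a prior count of 2. Fold changes of the tests were those of the edgeR fit at its default prior count. Same-numbered astrocyte and flow libraries came from 1 animal (correlation of their deviations -0.04 to 0.60, median 0.14, over 39 pairs). Nothing in the labels ties other libraries beyond the animal, so p-values of fits to a single fraction measure the spread between mice. Fits holding both fractions entered the libraries of a mouse as separate observations. Their p-values ignore that pairing, except where the animal is named as a block. The genes and lists were chosen with earlier results of these data known: all 7 members are named, and others only from a fixed list. Alternatives included DESeq2 1.42.0, total-count scaling, other filters, blocks and left-out libraries. The fits, tested on simulated data, recovered 99 to 100 of 100 genes changed 4-fold and 16 to 79 of 100 changed 2-fold. The simulation gave every gene the same dispersion, without pairing by mouse. It changed only genes above a set mean count and left all others unchanged. The recovery therefore does not carry over to genes that vary more between mice, as Cd74 did in uninjured mice.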

Additional observations from a re-analysis of the deposited data

Results flagged for a closer look

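Within groups of 4 or 5 libraries, 19 of 182 sets of values held a library that stood apart from the rest by Dixon's criterion, which flags about 1 set in 20 by chance. Library 4 of the mGfap mice at 14 days was such a library in the astrocyte fraction for Cd74 (142 CPM, the next 37.3), H2-Aa (45.6, the next 12.0), H2-Ab1 (55.4, the next 18.1) and H2-Eb1 (37.2, the next 13.9). Astrocyte library 3 of the Aldh1l1 mice at 42 days stood apart for Cd74 (1282, the next 818) and H2-Ab1 (501, the next 341). H2-Ab1 also stood apart in male astrocyte library 3 at 5 days (469.5, the next 299) and in P35 library 1 (5.04, the next 2.50). Ciita stood apart in 2-day astrocyte library 3 (2.42, the next 1.47), 5-day male astrocyte library 2 (6.58, the next 4.67), 70-day flow library 1 (2.62, the next 0.932), P0 library 2 (0.670, the next 0.0239), P14 library 3 (1.02, the next 0.293) and, as the lowest, mGfap 14-day flow library 1 (0.669, the next 1.72). The others were H2-Aa in 5-day astrocyte library 4 (189.9, the next 156), H2-DMa in 5-day flow library 2 (32.9, the next 28.8) and P0 library 3 (9.04, the next 4.94), and H2-DMb1 in 28-day flow library 4 (54.3, the next 45.8) and P0 library 2 (2.78, the next 0.137).

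Of 63 tested differences between groups in the effect of a contrast, 51 passed. For the change of the astrocyte-to-flow ratio against uninjured mice, in the order Cd74, H2-Aa, H2-Ab1, H2-Eb1, H2-DMa, H2-DMb1 and Ciita, the log2 values were 3.23, 1.76, 1.98, 2.56, 1.37, -1.23 and 3.92 at 2 days and 4.31, 4.23, 4.33, 4.42, 1.87, 1.34 and 3.89 at 5 days. Without H2-DMb1, and in the same order, they were 3.60, 3.71, 3.86, 3.94, 1.45 and 3.95 at 14 days, 2.49, 2.51, 2.52, 2.82, 1.20 and 3.72 at 28 days, 3.23, 3.36, 3.52, 3.68, 1.56 and 2.83 at 42 days, and 2.67, 2.71, 2.85, 3.00, 1.49 and 2.70 at 70 days. The ratio in mGfap mice against Aldh1l1 mice at 14 days differed by -5.66, -5.56, -5.70, -5.68, -2.37, -2.51 and -3.88 for the 7 genes in that order. The response to SCI differed between the lines in astrocyte libraries for H2-DMa (-1.80) and H2-DMb1 (-2.21), and in flow for Cd74 (2.78), H2-Aa (2.71), H2-Ab1 (2.94) and H2-Eb1 (2.78).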

How the results depend on the processing

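Over 46 comparisons, 353 of 389 counts of called members under another setting stayed within 1.5 times the value reported, and 36 in 12 comparisons did not. Of 2401 member values, 2240 kept their direction and call, 31 changed sign without being called in either fit, 74 lost the call, 55 gained it and 1 called value reversed, the 5-day astrocyte-to-flow difference of H2-DMa, which went from 0.26 to -0.044 with total-count scaling. The cause was not tested, and the same holds below. In flow, with only the groups compared in the fit, 1 member was called at 2 days (4 as reported) and 2 at 14 days (5 as reported). The latter was 3 with total counts and 2 without uninjured mice 3 and 4, who were left out after their levels had been seen. Without them the 2-day count was 2, and without mice 1 and 2 the 5-day count was 4 in place of 2. The uninjured astrocyte-to-flow count of 1 was 3 at FDR under 0.05, 2 with DESeq2, with total counts and with legacy=FALSE, 6 with the animal as a block, 6 without mice 1 and 2 and 5 without mice 3 and 4. The 28-day count of 4 was 2 with total counts, 1 without a filter and 1 with the animal as a block. For mGfap astrocyte libraries at 14 days against P63, 6 became 3 with a replicate block and 1 with labelled sex. The astrocyte interaction of the lines, 2 as reported, was 4 at FDR under 0.05, 1 with total counts, 1 without a filter, 0 with a replicate block, 0 with labelled sex, 4 without mice 1 and 2 and 0 without mice 3 and 4. Its flow counterpart, 4, was 7 at FDR under 0.05, 2 with labelled sex and 2 without mice 1 and 2. The flow difference between lines at 14 days, 4, was 0 with a replicate block. The uninjured lines, 0, gave 3 in astrocyte libraries and 1 in flow at FDR under 0.05. P63 against P0, 0, gave 3 at FDR under 0.05, 2 with DESeq2, 1 with total counts, 2 with legacy=FALSE and 1 with a replicate block, and 0 with labelled sex, which was added after the data had been seen.

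Leaving out 1 library or mouse at a time kept 390 of 425 counts within 1.5 times, and of 2975 member values no called one reversed, while 54 that were called in neither fit changed sign. Counts ran from 3 to 6 for flow at 14 days, 2 to 5 and 1 to 6 for the astrocyte-to-flow difference at 2 and 28 days, 0 to 6 for the astrocyte interaction, 0 to 4 for flow between lines at 14 days (0 without Aldh1l1 library 2, 3 or 4) and 0 to 1 for age. In astrocyte libraries all 7 genes passed against uninjured at every time with each library left out. Across time points, lines, sexes and ages, equal replicate numbers belong to different animals, whose deviations showed median correlations of -0.01 to 0.05, so a block on those numbers has no basis in the design, and it changed no count beyond those given. Depth limits Ciita most, which reached 0 counts in 1 P63 library, where 3 counts would be the floor. Its lowest 2-day flow value was in library 2, which had the fewest counts of all libraries (40710428). The Ciita log2 ratio of that mouse was 5.06, against 1.61 to 2.83 in the other 2-day mice. The 2-day gain of the Ciita ratio (3.92) includes that mouse.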

Other observations

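The genes whose levels ran most like the members over the 29 astrocyte libraries of the Aldh1l1 females, out of 18205, were the adhesion molecule Icam1 (Pearson r = 0.971), Akr1c13 (0.961), Gm5086 (0.960), Htatip2 (0.958) and the B cell and myeloid receptor Cd72 (0.956), followed by Fbxw17 (0.950), Slamf9 (0.949), Ifitm2 (0.949), Aif1 (0.948) and C1rl (0.948). The libraries share their time points, so these values describe a common course. Icam1 stood at 3.51 ± 1.45 CPM (SD, n = 4) in uninjured, 55.3 ± 8.30 at 5 days and 64.6 ± 16.8 at 70 days.

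Over the 29 flow libraries the list was different, led by AW112010 (0.955), Abhd14b (0.924), Nnat (0.921), Klrb1b (0.912) and Pdzk1ip1 (0.912). The members themselves held together less closely there, from 0.965 for H2-Eb1 down to 0.826 for H2-DMa, 0.620 for H2-DMb1 and 0.570 for Ciita, against 0.954 to 0.993 in astrocyte libraries. Each member is part of the mean with which it was correlated, which raises its value. The values of members therefore cannot be compared with those of the other genes.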
